A study of Homo sapiens with 36 samples.

Results

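The 7 genes described here encode cell surface proteins through which cells bind other cells or the surrounding matrix: ICAM1, VCAM1, ALCAM, CD44, L1CAM, CD58 and NCAM1. They were chosen by name, with earlier results of these data known, as the rows whose Ensembl identifier belongs to one of these symbols. All 7 were found among the 63677 genes listed in each count table. Enough reads for a test were counted on 5 of them. VCAM1 and NCAM1 were below that level and are described by their counts alone.

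RNA was sequenced from A549, an established line of human lung adenocarcinoma cells, grown in RPMI with 10% serum. Cells that received IL-1β at 1 ng/ml were harvested on days 6, 15 and 21 of that exposure, and cells that had received it for 21 days were collected again at days 6, 15 and 30 after its withdrawal. Each collection had its own untreated control cells of the same line and medium, and each of the 12 groups held 3 libraries, 36 in all. The labels call the 3 libraries of a group biological replicates without saying how the cultures were kept apart, so the p-values measure the spread between these libraries.

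Most of these proteins belong to the immunoglobulin superfamily, whose extracellular domains bind partners on neighbouring cells. ICAM1 and VCAM1 are the textbook receptors for leukocyte integrins on inflamed endothelium and epithelium, and cytokines such as IL-1β switch on their genes through the transcription factor NF-κB. CD44 is built differently: it is the main receptor for the matrix polysaccharide hyaluronan, and it is often used as a marker of mesenchymal or stem-like carcinoma cells. L1CAM and NCAM1 were first known from neurons, ALCAM binds CD6 on T cells, and CD58 binds CD2 on T and natural killer cells.

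The libraries held between 9116032 and 23570026 reads on genes, with a median of 15902700. Of the 36 libraries, 11 had between 11.8% and 24.6% of these reads on the 37 mitochondrial genes, against 5.61% to 7.75% in the other 25. These 11 libraries were 6 of control and 5 of IL-1β cells, 8 of them from the collections after withdrawal, and they left 1 control library each at days 6 and 15 after withdrawal when they were left out. Every library of replicate 2 after withdrawal was among these 11. At those times, the fits without replicate 2 and without the 11 libraries are therefore not separate checks. Values without the 11 libraries are given for ICAM1, CD44, L1CAM and CD58, and for the genes of the related lists that lost a call. The levels of CDKN2A, a tumour suppressor gene deleted in A549, were 0 in all libraries. Of the 8 epithelial markers, KRT8, with a median of 2180 CPM, and KRT18 were abundant, while KRT19 and EPCAM stayed at or below 0.195 and 1.63 CPM. Their summed level lay between 4880 and 10600 CPM in control libraries and between 1660 and 7650 CPM in IL-1β libraries. Markers of leukocytes summed to at most 17.2 CPM, nearly all of it CD14, with CD3E at 0, and 5 endothelial markers summed to at most 0.405 CPM. The 6 fibroblast markers summed to 1.03 to 4.2 CPM in control and 1.36 to 3.42 CPM in IL-1β libraries. In bulk RNA, a change in the share of cells that express a gene and a change in its RNA per cell cannot be told apart.

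Because ICAM1 and VCAM1 are known for the NF-κB sites before their start, the sequence upstream of both genes is shown, from 250 to 51 bases before the RefSeq start on build GRCh37. The ICAM1 window is chr19:10381546-10381745 and the VCAM1 window chr1:101185048-101185247, both on the + strand and outside all exons of the annotation. Capitals mark matches to GGNNNTTCC, a κB-like motif searched on both strands.
ICAM1: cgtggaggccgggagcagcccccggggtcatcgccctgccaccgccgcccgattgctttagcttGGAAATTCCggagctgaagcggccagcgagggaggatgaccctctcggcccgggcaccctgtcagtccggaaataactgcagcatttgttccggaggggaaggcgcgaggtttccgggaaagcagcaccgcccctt
VCAM1: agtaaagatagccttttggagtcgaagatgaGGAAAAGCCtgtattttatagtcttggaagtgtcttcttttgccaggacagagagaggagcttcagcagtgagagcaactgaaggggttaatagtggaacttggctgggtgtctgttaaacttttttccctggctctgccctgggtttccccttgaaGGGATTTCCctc
The match in ICAM1 begins 186 bases before the start and reads as the motif on either strand, GGAAATTCC on the one and GGAATTTCC on the other. In VCAM1 1 match lies on the + strand 62 bases before the start and 1 on the opposite strand 219 bases before it. In windows of 300 bases that ran to 50 bases after the start, CD58 had 1 match on the opposite strand, at 81 bases before the start, and ALCAM, CD44 and L1CAM had none. Of all 35116 RefSeq promoter windows of that length, 20.1% held this motif. The AP-1 motif TGANTCA, held by 7.7% of the windows, was found in none of the 6 genes that had a window. NCAM1 had no window in the table. These are matches of letters to the motifs as written, so a known site with other letters stays unmarked and a marked stretch need not be one. Binding was not measured.

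ICAM1 (ENSG00000090339, chr19:10381769-10397291, + strand, GRCh37) encodes intercellular adhesion molecule 1, the ligand of the leukocyte integrins LFA-1 and Mac-1. Its RNA was higher at all 3 times with IL-1β, by 6.27-fold at day 6, 3.84-fold at day 15 and 5.47-fold at day 21. It was nevertheless scarce throughout: 271 reads were counted on it in the 36 libraries together, of which 47 fell in the 18 controls, 178 in the 9 libraries with IL-1β and 46 in the 9 libraries after withdrawal. The folds therefore rest on small counts, and the deepest count in any library was 52.

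At day 6, 0, 2 and 3 reads of ICAM1 were counted in the 3 control libraries and 9, 16 and 11 in the 3 IL-1β libraries. At day 15, the controls held 8, 6 and 2 reads and the IL-1β libraries 25, 15 and 13. At day 21, the controls held 9, 2 and 5 reads and the IL-1β libraries 18, 19 and 52. All 9 IL-1β libraries thus stood above all 3 controls of their own day, and above the highest of the 18 controls in CPM as well, since the lowest exposed library was at 0.536 CPM and the highest control at 0.513 CPM. IL-1β libraries lay wholly above the controls of their day for 10.6%, 11.5% and 13.8% of all genes tested at days 6, 15 and 21. CPM are counts per 1000000 reads on genes, with the library size scaled by edgeR's TMM method.

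The plot of reads per library for the low members shows this separation and the lower counts after withdrawal.

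**Figure D1:**
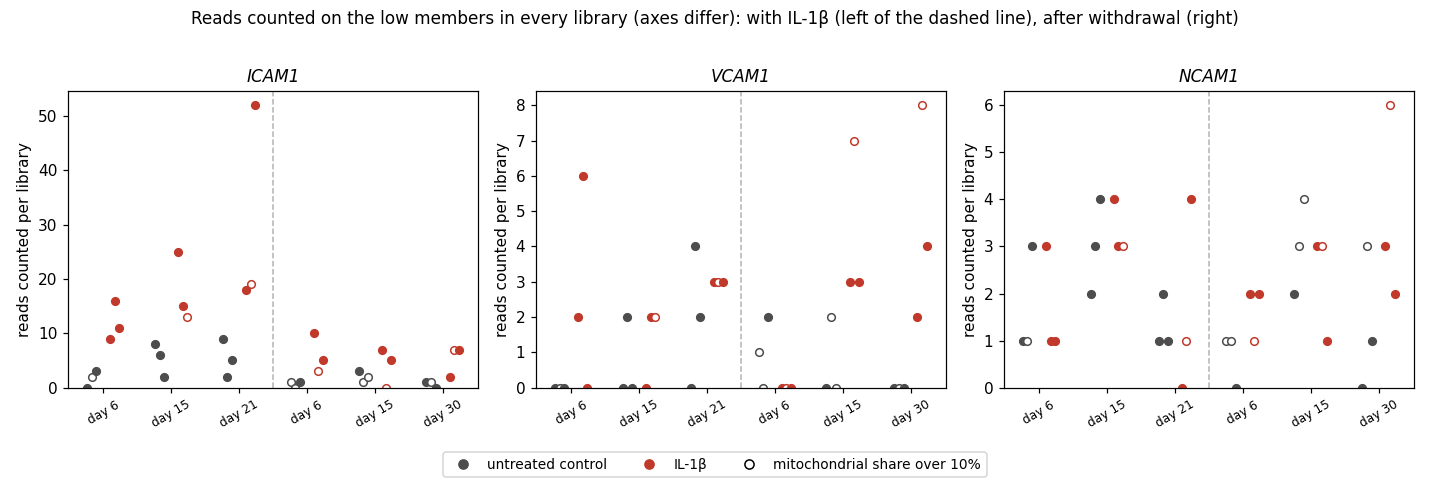
Reads counted on ICAM1, VCAM1 and NCAM1 in each of the 36 libraries (vertical axis, one scale per gene), by day with IL-1β and after its withdrawal; grey points are untreated controls, red points IL-1β cells, and open points libraries with over 10% mitochondrial reads. ICAM1 reached 52 reads at day 21 and at most 10 after withdrawal, and VCAM1 and NCAM1 stayed at or below 8 and 6 reads everywhere.

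In the fit across all genes by edgeR's quasi-likelihood test, the log2 fold change of ICAM1 was 2.65 (SE 0.86, adjusted p = 0.0374) at day 6, 1.94 (SE 0.61, adjusted p = 0.0435) at day 15 and 2.45 (SE 0.60, adjusted p = 0.00515) at day 21. Each passed both thresholds, a fold change over 2 and an adjusted p under 0.05. At day 6, 2.77% of all 19180 genes tested did so and 1.52% were higher, at day 15 4.24% and 1.94%, and at day 21 4.26% and 2.19%. ICAM1 was the only one of the 5 tested members called at days 6 and 15, and 1 of 3 at day 21. The calls were close to the threshold. Without replicate 1, 2 or 3 in turn, the log2 fold change at day 6 ran from 2.21 to 3.44 and no call was left, with adjusted p from 0.15 to 0.419. The call at day 15 was also lost in each turn, with log2 fold changes from 1.41 to 2.35 and adjusted p from 0.0625 to 0.693. At day 21 they ran from 1.86 to 3.39, and the call was lost without replicate 2 (adjusted p = 0.0572) and without replicate 3 (adjusted p = 0.323). Over all alternatives, adjusted p at day 21 ran from 0.00141 to 0.323. Without the libraries of high mitochondrial share, ICAM1 kept its call at days 6 and 21 and had an adjusted p of 0.0509 at day 15.

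After withdrawal, ICAM1 had 10, 3 and 5 reads in the 3 IL-1β libraries at day 6, 7, 0 and 5 at day 15 and 2, 7 and 7 at day 30. The controls of those days held 1, 0 and 1, then 3, 1 and 2, then 1, 1 and 0 reads. In CPM, the libraries after withdrawal lay above all their controls at days 6 and 30 and overlapped with them at day 15. Such a separation was seen for 5.51% of all genes at day 6 and 6.78% at day 30. At day 30 the lowest IL-1β library held 2 reads of ICAM1 (0.136 CPM) and the highest control 1 read (0.129 CPM). The log2 fold change was 2.90 (SE 1.26, adjusted p = 0.150) at day 6, 0.44 (SE 0.90, adjusted p = 0.915) at day 15 and 2.62 (SE 1.26, adjusted p = 0.323) at day 30, so none passed the test. With the 11 high-mitochondrial libraries left out they came to 3.12, 0.73 and 2.97, and none passed either. With reads summed over each group, the ratio of IL-1β to control cells was 8.68 (95% exact interval 2.08 to 77.1) at day 6. It was 1.38 (0.479 to 4.48) at day 15, an interval that includes 1, and 7.26 (1.71 to 65) at day 30. These intervals cover counting error only. The mean of the IL-1β cells was 1.51 ± 0.583 CPM (SD, n = 3) at day 21 and 0.306 ± 0.161 CPM (SD, n = 3) at day 30 after withdrawal, while that of their controls was 0.277 ± 0.208 and 0.0608 ± 0.0646 CPM (SD, n = 3). Between day 21 and day 30 after withdrawal, the ICAM1 response changed by 0.17 on the log2 scale, with a 95% interval from -2.68 to 3.02, which leaves a full loss and a further gain within its range.

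The low count of ICAM1 has a limit of its own. In the annotation used here, 23.6% of its exon bases also belong to ICAM4-AS1 on the opposite strand and 1.77% to LIMASI. Reads on bases shared by 2 genes are set aside as ambiguous when strand is not used, and the strand setting of the counting is not given in the sources used here. ICAM4-AS1 and LIMASI themselves held 1 and 2 reads in all libraries. Of 5 genes near ICAM1, MRPL4 held 20880 reads in all libraries, RAVER1 16778 and ICAM3 3226, while ICAM5 held 35 and ICAM4 0. Whether reads of ICAM1 were set aside was not tested.

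VCAM1 (ENSG00000162692, chr1:101185298-101204601, + strand) encodes vascular cell adhesion molecule 1, the ligand of the integrin VLA-4. It was barely detected, with 61 reads in all libraries and none in 17 of the 36. At day 6 with IL-1β, 2, 6 and 0 reads were counted against 0 in each control. With the 3 controls together set at a floor of 3 reads, the ratio was 2.39, without allowance for counting error in the IL-1β reads. At day 30 after withdrawal, 2, 8 and 4 reads stood against 0 in each control, a ratio of 4.23 on the same floor and with the same limit. At day 15 after withdrawal, 3, 7 and 3 reads stood against 0, 2 and 0, a ratio of 4.48 with a 95% exact interval from 1.02 to 40.9. In those last 2 collections, all 3 IL-1β libraries were above the controls in reads, although those of day 15 overlapped with them in CPM, whereas at day 6 after withdrawal the order was turned, with 0 reads in the IL-1β libraries and 1, 0 and 2 in the controls. The ratio at day 15 of exposure was 2.37 (0.34 to 26.2) and at day 21 1.58 (0.503 to 5.4), both with intervals that include 1. No test across libraries was made at these counts. The highest VCAM1 levels, 0.509 and 0.52 CPM, were in libraries of high mitochondrial share, whose part in these values was not tested.

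NCAM1 (ENSG00000149294, chr11:112831997-113149158, + strand), the neural cell adhesion molecule known to pathologists as CD56, was also scarce, with 76 reads in all libraries and at most 6 in one. Controls held 33 reads over 18 libraries, exposed cells 20 over 9 and cells after withdrawal 23 over 9. The ratio of IL-1β to control reads ran from 0.537 (95% exact interval 0.17 to 1.62) at day 15 after withdrawal to 2.49 (0.739 to 10.7) at day 30, and all 6 intervals included 1. A difference was not detectable at this depth. Transcripts on the opposite strand cross the gene here too, among them TTC12-DT, which had 76 reads of its own.

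CD44 (ENSG00000026508, chr11:35160429-35253949, + strand) was, per kilobase of exon, with ALCAM the most abundant of the 7, and its log2 fold changes had the smallest errors. Its RNA was higher in the IL-1β libraries than in every control of the same day at all 6 collections, by 1.70-fold at day 6, 1.98-fold at day 15 and 2.21-fold at day 21, then 1.80-, 1.45- and 1.33-fold at days 6, 15 and 30 after withdrawal.

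In the 3 control libraries of day 6, CD44 stood at 394, 409 and 278 CPM, and in the IL-1β libraries at 650, 638 and 545 CPM. At day 15, the controls were at 325, 306 and 365 CPM and the IL-1β libraries at 666, 624 and 679 CPM. At day 21, the controls were at 352, 341 and 284 CPM and the IL-1β libraries at 736, 783 and 636 CPM. The ranges were far apart at day 21, where the lowest exposed library was well above the highest control. After withdrawal the IL-1β libraries stood at 626, 677 and 488 CPM at day 6, 498, 548 and 405 CPM at day 15 and 443, 474 and 383 CPM at day 30. The controls of those days stayed where they had been, at 359, 367 and 269, then 340, 370 and 292, then 307, 334 and 337 CPM. The group means were nearest to each other at day 30, but the groups did not overlap there either. By edgeR's quasi-likelihood test over the 6 control groups, CD44 did not move detectably in untreated cells (adjusted p = 0.988); of all genes tested, 0.00521% did.

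**Figure D2:**
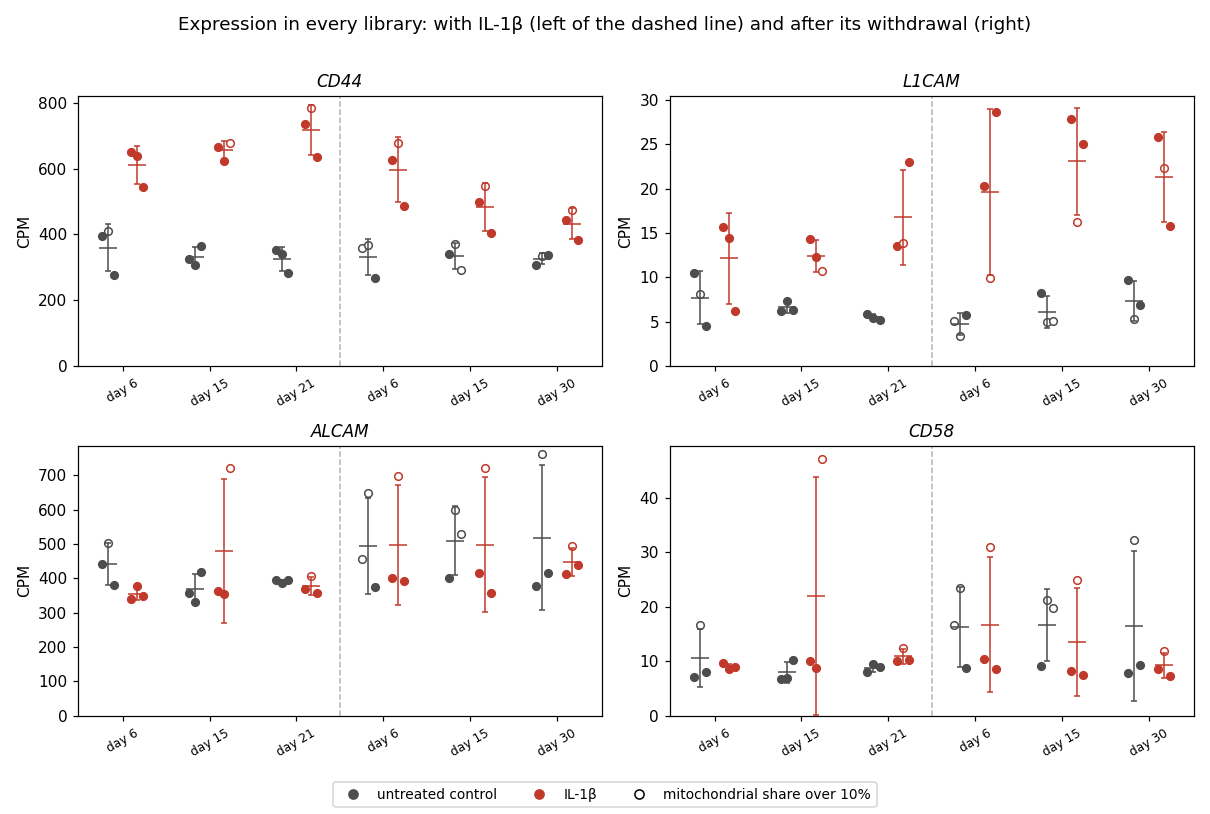
CPM of CD44, L1CAM, ALCAM and CD58 in each library (points), with the group mean (dash) and SD (bars, n = 3), by day with IL-1β and after its withdrawal; grey is untreated control, red IL-1β, and open points are libraries with over 10% mitochondrial reads. CD44 peaked at a mean of 718 CPM at day 21 and was at 433 CPM at day 30 after withdrawal, L1CAM stayed high after withdrawal, and the highest points of ALCAM and CD58 are open.

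The log2 fold change of CD44 was 0.76 (SE 0.16, edgeR adjusted p = 0.00276) at day 6, 0.98 (adjusted p = 9.42e-05) at day 15, 1.14 (adjusted p = 1.11e-05) at day 21 and 0.85 (adjusted p = 0.00145) at day 6 after withdrawal. Only day 21 passed the fold threshold as well, and day 15 fell just short of it. Day 15 passed both with DESeq2's size factors, by DESeq2's Wald test, fitted alone and without replicate 3 (log2 fold change from 1.01 to 1.04). Over all alternatives, adjusted p ran up to 0.263 at day 6, 0.0783 at day 15 and 0.0271 at day 21. At day 21 the log2 fold change stayed from 1.07 to 1.19. The 0.54 and 0.41 at days 15 and 30 after withdrawal did not pass (adjusted p = 0.104 and 0.351). IL-1β libraries lay wholly above their controls for 10.6%, 11.5% and 13.8% of all genes at the 3 times of exposure, and for 5.51%, 6.02% and 6.78% at the 3 times after withdrawal. Between day 21 and day 30 after withdrawal, the CD44 response moved by -0.73 on the log2 scale (SE 0.22, 95% interval from -1.19 to -0.27), which missed the threshold over all genes (edgeR adjusted p = 0.201); 0.73% of all genes passed it. Its unadjusted p was under 0.05, as it was for 1160 of the 19180 genes. With the replicate number as a block it was -0.74 and passed (adjusted p = 0.0351, the lowest over its alternatives, of which the highest was 0.994). Without the libraries of high mitochondrial share, the log2 fold changes of CD44 were 0.89, 0.96 and 1.09 with IL-1β and 1.07, 0.42 and 0.37 after withdrawal, so that day 6 after withdrawal then passed the fold threshold (adjusted p = 0.00612, in a range from 2e-05 to 0.322 over all alternatives).

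L1CAM (ENSG00000198910, chrX:153126969-153151627, - strand), a neuronal adhesion molecule that is also known from invasive carcinomas, was the tested member with the most calls, 4 of 6 collections. It was low in untreated cells, and its fold changes were largest in the first days after IL-1β had been withdrawn, although no difference between times passed the test: the fold over control was 1.57, 1.88 and 3.07 at days 6, 15 and 21 and 4.14, 3.76 and 2.89 at days 6, 15 and 30 after withdrawal. L1CAM was the only one of the 5 tested members past both thresholds after withdrawal, where 1.8%, 0.954% and 0.897% of all genes passed them and 1.08%, 0.594% and 0.433% were higher.

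At day 6, the controls held 10.5, 8.09 and 4.55 CPM of L1CAM and the IL-1β libraries 15.7, 14.5 and 6.23 CPM. At day 15, the controls held 6.21, 7.37 and 6.28 CPM and the IL-1β libraries 14.3, 12.3 and 10.7 CPM. At day 21, the controls held 5.87, 5.37 and 5.18 CPM and the IL-1β libraries 13.5, 13.8 and 23 CPM. The groups overlapped at day 6 and were apart from day 15 on. After withdrawal the IL-1β libraries held 20.3, 9.97 and 28.6 CPM at day 6, 27.9, 16.3 and 25.1 CPM at day 15 and 25.9, 22.3 and 15.8 CPM at day 30. The controls of those days held 5.03, 3.37 and 5.8, then 8.18, 5 and 5.08, then 9.74, 5.28 and 6.89 CPM. All 9 libraries after withdrawal were above the controls of their day, with a wide spread among themselves, and the lowest ones at days 6 and 15 were of high mitochondrial share.

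The log2 fold change of L1CAM was 0.65 (SE 0.36, edgeR adjusted p = 0.544) at day 6 and 0.91 (adjusted p = 0.156) at day 15, which did not pass. It was 1.62 (SE 0.35, adjusted p = 0.00372) at day 21, 2.05 (SE 0.36, adjusted p = 0.00106) at day 6 after withdrawal, 1.91 (adjusted p = 0.00406) at day 15 and 1.53 (adjusted p = 0.0244) at day 30, all past both thresholds. The change from day 6 to day 21 of exposure was 0.97 (95% interval from -0.06 to 2.00, edgeR adjusted p = 1.00), against 0.0104% of all genes called. That from day 21 to day 6 after withdrawal was 0.43 (-0.61 to 1.47), where 0.141% of all genes were called, and that from day 21 to day 30 after withdrawal was -0.09 (-1.12 to 0.94). None of these 3 changes of L1CAM passed in any alternative fit. Without the libraries of high mitochondrial share, the calls at day 21 and at day 6 after withdrawal held (log2 fold change 1.76 and 2.09), while those at days 15 and 30 had a log2 fold change of 1.70 and 1.32 and were lost (adjusted p = 0.217 and 0.0993). Without replicate 1 all 4 calls were lost, without replicate 2 those at days 15 and 30 after withdrawal and without replicate 3 that at day 21, with log2 fold changes from 1.28 to 2.14 over these fits. Fitted alone, each of the 3 times after withdrawal lost its call (adjusted p = 0.184, 0.137 and 0.341), and with library totals day 30 did (adjusted p = 0.0824). Over all alternatives, adjusted p ran from 0.000134 to 0.0869 at day 21 and, after withdrawal, from 3.87e-06 to 0.184 at day 6, 4.13e-05 to 0.266 at day 15 and 0.00218 to 0.483 at day 30.

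**Figure D3:**
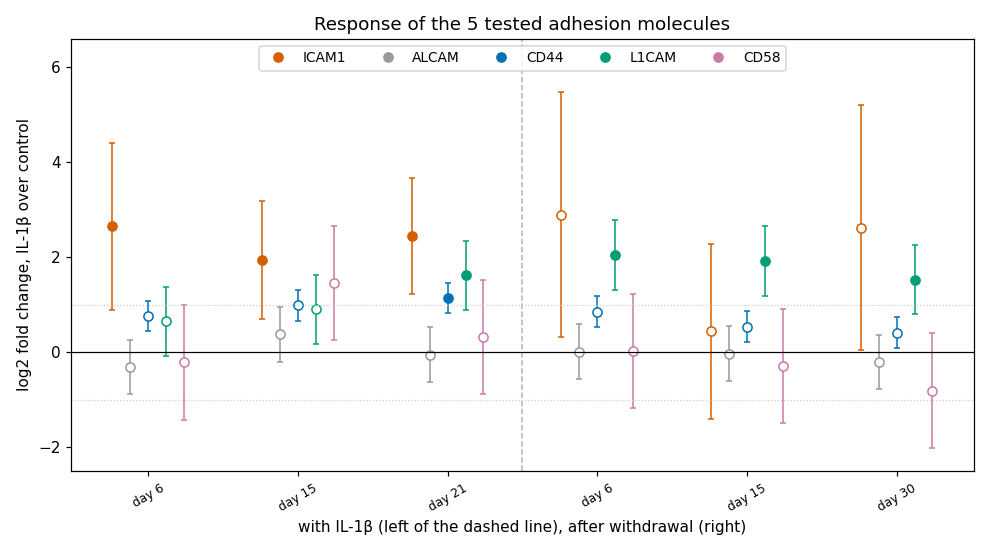
Log2 fold change of IL-1β over control cells (vertical axis) for the 5 tested members at each collection, with 95% intervals from the edgeR fit of all 36 libraries; filled points passed both thresholds and dotted lines mark a fold change of 2 in either direction. ICAM1 is called during exposure with wide intervals, L1CAM from day 21 to day 30 after withdrawal, CD44 at day 21, and ALCAM and CD58 at no time.

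ALCAM (ENSG00000170017, chr3:105085753-105295744, + strand), activated leukocyte cell adhesion molecule, did not pass the test at any collection. Its level had a median of 409 CPM in controls, 363 CPM in exposed cells and 416 CPM after withdrawal. The log2 fold changes were -0.31, 0.38 and -0.05 with IL-1β and 0.01, -0.03 and -0.21 after withdrawal, with an SE of 0.28 each and the smallest unadjusted p at 0.192. At day 6 all 3 IL-1β libraries, at 341, 377 and 348 CPM, were below the controls at 441, 502 and 382 CPM, which was so for 11.2% of all genes. The 95% interval ran from -0.89 to 0.27 at day 6 and from -0.63 to 0.53 at day 21, so a change of 2-fold in either direction lies outside both.

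CD58 (ENSG00000116815, chr1:117057156-117113661, - strand), the CD2 ligand also called LFA-3, did not pass the test either. Controls at day 21 were at 7.98, 9.41 and 8.84 CPM and IL-1β libraries at 10.1, 12.5 and 10.2 CPM, apart but close, with a log2 fold change of 0.32 (SE 0.59, edgeR adjusted p = 1.00). At day 15, the IL-1β libraries stood at 10.0, 8.77 and 47.2 CPM against 6.68, 6.88 and 10.2 CPM. There 1 IL-1β library held over 4 times the level of the other two, and the log2 fold change of 1.45 (SE 0.59, adjusted p = 0.185, unadjusted p = 0.0220) came to 0.24 (adjusted p = 0.451, in a range from 0.0458 to 1.00 over all alternatives) without the libraries of high mitochondrial share, of which it was one. After withdrawal the log2 fold changes were 0.03, -0.30 and -0.81, and without those libraries they were 0.14, -0.20 and -0.12; without replicate 2, the last came to -0.12.

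CD58 and ALCAM had their highest levels in the libraries of high mitochondrial share. In these 11 libraries, CD58 had a median of 21.2 CPM (11.8 to 47.2), and in the other 25 a median of 8.76 CPM (6.68 to 10.5), without overlap. ALCAM had a median of 599 CPM (408 to 761) in the former and 382 CPM (332 to 441) in the latter. CD44, at 409 and 394 CPM, and L1CAM, at 8.09 and 10.5 CPM, differed less in their medians, and ICAM1 was at 0.174 and 0.325 CPM. The part of these libraries in the spread of CD58 and ALCAM was not tested beyond the fits without them.

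Compared per kilobase of exon, the order of the untreated levels was ALCAM, CD44, CD58, L1CAM, ICAM1, NCAM1 and VCAM1. The medians over the 18 controls were 56.9 CPM per kilobase for ALCAM (46.3 to 106), 33.9 for CD44 (26.9 to 40.9), 5.13 for CD58 (3.75 to 18.1) and 0.803 for L1CAM (0.464 to 1.44). They were 0.0374 CPM per kilobase for ICAM1, 0.00941 for NCAM1 and 0 for VCAM1, whose ranges all began at 0 and overlapped. The first 4 did not overlap with one another. With IL-1β, CD44 had a median of 65.1 CPM per kilobase (54.5 to 78.4) and overlapped with ALCAM at 50.5 (47.5 to 100), so that these neighbours were no longer apart. ICAM1, at a median of 0.339 CPM per kilobase in exposed cells (0.155 to 0.619), was below L1CAM at 1.91 (0.858 to 3.16).

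Across the 12 group means of log2 CPM, ICAM1 and CD44 had a Pearson correlation of 0.872, CD44 and L1CAM of 0.744 and ALCAM and CD58 of 0.773. These are descriptions over 12 points, of which each pair of points at 1 collection shares its day and the points of CD58 and ALCAM share the libraries of high mitochondrial share. The tested genes whose group means followed ICAM1 most closely were CHD1L (r = 0.963), MGAT5 (r = 0.962) and SLCO2B1 (r = 0.952), and those closest to L1CAM were MR1 (r = 0.970), KRT87P (r = 0.961) and KRT86 (r = 0.956), over the same 12 groups.

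The NF-κB targets, among which ICAM1 and VCAM1 are usually counted, were read from a list of 16 genes without them, of which 15 were tested. This list and those below were chosen with earlier results of these data known. With IL-1β 13, 12 and 12 of the 15 were called higher at days 6, 15 and 21 and none lower, with a median log2 fold change of 2.17, 2.37 and 1.89, against -0.02, -0.02 and -0.01 over all genes. Of all genes, 1.52%, 1.94% and 2.19% were called higher at these days. After withdrawal 4, 2 and 3 of the 15 were called higher, with medians of 0.87, 0.57 and 0.45, where 1.08%, 0.594% and 0.433% of all genes were. CXCL8, a neutrophil chemokine, went from 0.697 ± 0.139 CPM in controls to 84.5 ± 13.8 CPM at day 21 (SD, n = 3), and its log2 fold change of 6.91 became -0.97 (edgeR adjusted p = 0.60) at day 30 after withdrawal. CXCL1, a chemokine of the same kind, went from 5.43 to -1.16 (adjusted p = 0.0606). IL6, the acute-phase cytokine, kept a log2 fold change of 2.74 (adjusted p = 0.00759) at day 30 after withdrawal and CCL20 one of 2.34 (adjusted p = 0.0143), against 5.55 and 5.57 at day 21. Both calls at day 30 were lost when that time was fitted alone (edgeR adjusted p = 0.691 and 0.424), without replicate 1 and without replicate 2. That of CCL20 was also lost without replicate 3. At day 6 after withdrawal, the CCL20 call was lost with each replicate left out in turn and when fitted alone (edgeR adjusted p up to 0.167). The IL6 call there was lost without replicate 1 and when fitted alone. At day 15 both were lost without replicate 2 and when fitted alone, and that of IL6 without replicate 1. At day 15 after withdrawal, CCL20 (1.28, adjusted p = 0.556) and IL6 (2.14, adjusted p = 0.217) lost their calls without the high-mitochondrial libraries. L1CAM was called at the same 3 collections after withdrawal as IL6 and CCL20, and the difference between their courses was not tested.

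Among 30 further adhesion molecules of the immunoglobulin superfamily, 19 were tested, and 1 was called higher at each of the 6 collections, where 0.433% to 2.19% of all genes were. It was NFASC each time, neurofascin, a close relative of L1CAM in the same family of neuronal adhesion molecules. Its log2 fold change was 1.51, 2.36 and 3.18 with IL-1β and 3.15, 2.43 and 2.22 after withdrawal, and its level went from 2.06 ± 0.351 to 18.7 ± 2.35 CPM (SD, n = 3) at day 21. Fitted alone, each of the 3 times after withdrawal lost the NFASC call (edgeR adjusted p = 0.0968, 0.086 and 0.319). Without replicate 1, its calls at day 6 of exposure and at days 15 and 30 after withdrawal were lost. That at day 30 was also lost without replicate 2, and that at day 6 of exposure without replicate 3. CXADR, the coxsackievirus and adenovirus receptor of epithelial junctions, was called lower at days 15 and 21 and at day 6 after withdrawal, with log2 fold changes of -1.24, -2.04 and -1.27. That at day 6 after withdrawal was lost without replicate 1 and when fitted alone (edgeR adjusted p = 0.169 and 0.193). CADM4 and BCAM were called lower at day 15 only, by -1.43 and -1.27. Both of these calls were lost without replicate 1, without replicate 3 and when fitted alone (edgeR adjusted p up to 0.359 and 0.362). That of CADM4 was also lost with library totals. CADM1, a cell adhesion molecule of epithelia and neurons, had log2 fold changes of -0.80, -0.59 and -0.94 with IL-1β. Those at days 6 and 21 passed the adjusted p (edgeR, 0.0247 and 0.00467) but not the fold limit. CADM1 was at -0.70 at day 6 after withdrawal. It was called lower at days 15 and 30 after withdrawal, by -1.14 each (edgeR adjusted p = 0.00342 and 0.00403). With the high-mitochondrial libraries left out, the former came to -0.53 (adjusted p = 0.63, the highest over its alternatives) and the latter to -1.04 with its call kept. Both of these CADM1 calls were lost without replicate 1, without replicate 2 and with each time fitted alone (adjusted p up to 0.478 and 0.369), and that at day 15 also without replicate 3 and, by its fold change of -0.91, with library totals. The median of the 19 lay between -0.19 and 0.05 at every collection. Of the selectins and their ligand, 1 of 4 was tested, SELPLG, with log2 fold changes from 0.84 to 1.83. None passed after adjustment in the edgeR fit of all 36 libraries with the 12 groups alone as terms. DESeq2's Wald test called it at day 21 (1.80, adjusted p = 0.0181) and at day 6 after withdrawal (1.84, adjusted p = 0.0266). So did edgeR at both times with the replicate block or the mitochondrial covariate (adjusted p from 0.0129 to 0.035). At day 21, SELPLG was also called by edgeR when fitted alone (adjusted p = 0.0119) and without the high-mitochondrial libraries (adjusted p = 0.0366). Over all alternatives, its adjusted p ran from 0.0119 to 0.343 at day 21 and from 0.0129 to 0.647 at day 6 after withdrawal.

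**Figure D4:**
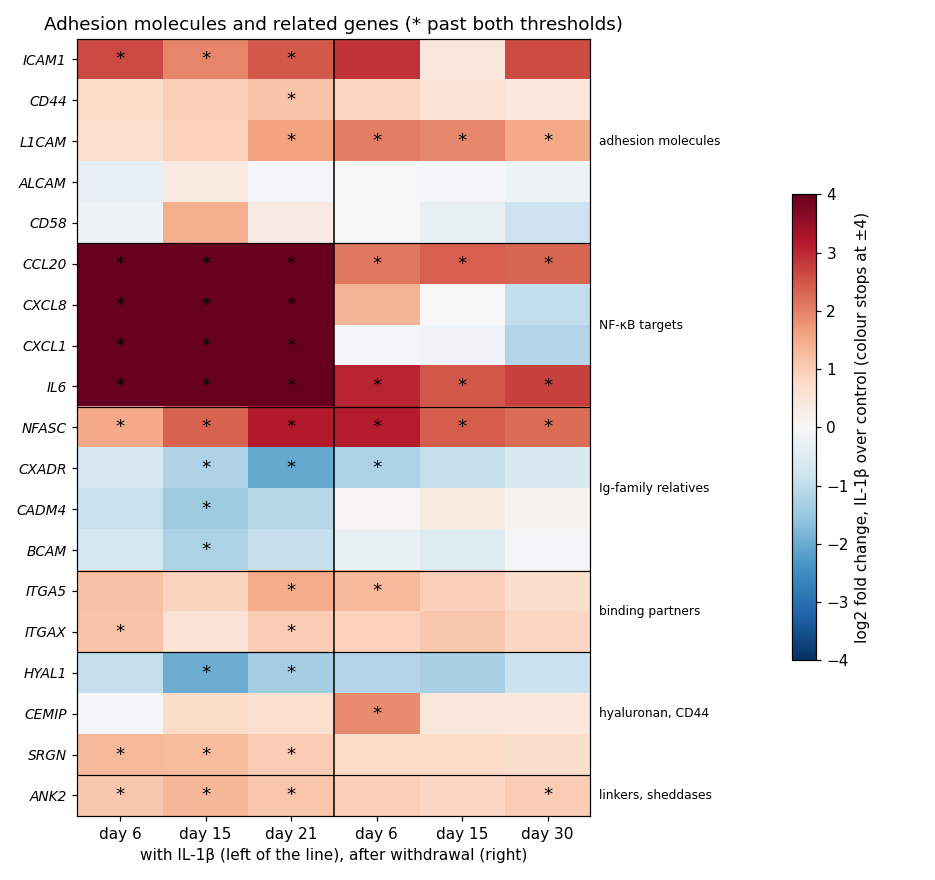
Log2 fold change of IL-1β over control cells (colour, which stops at 4 in either direction) for the 5 tested members and the named genes of 5 related lists, at 3 days with IL-1β (left of the line) and 3 days after withdrawal (right); asterisks mark genes past both thresholds by edgeR. L1CAM and NFASC are called up to day 30 after withdrawal, as are CCL20 and IL6, while CXCL8 and CXCL1 are called during exposure alone.

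For the lists that follow, the share of all genes called in either direction ran from 0.897% to 4.26% over the 6 collections. Of the 12 genes for binding partners of these molecules, 9 were tested. ITGA5, an integrin subunit that binds fibronectin and also L1CAM, was called higher at day 21 (log2 fold change 1.49, SE 0.35) and at day 6 after withdrawal (1.29, edgeR adjusted p = 0.0439). The call at day 6 after withdrawal was lost with each replicate left out in turn (adjusted p up to 0.791). That at day 21 was lost without replicate 1 and without replicate 3. ITGAX, a leukocyte integrin subunit, was called higher at days 6 and 21, by 1.16 and 1.02, at a level of at most 2.02 CPM in any group mean, and its call at day 6 was lost without the high-mitochondrial libraries (adjusted p = 0.0546). Both ITGAX calls were lost with each replicate left out in turn. Of 13 genes for hyaluronan and other partners of CD44, 8 were tested. SRGN, the proteoglycan serglycin, which CD44 can bind, was called higher at all 3 times of exposure, by 1.30, 1.28 and 1.00. Every one of these SRGN calls was lost without replicate 1 (edgeR adjusted p up to 0.233). That at day 21 was also lost, by its fold change, without replicate 3, with library totals and with at least 10 counts in every sample. The same held under the mitochondrial covariate (log2 fold change 0.899). HYAL1, a hyaluronidase, was called lower at days 15 and 21, by -1.98 and -1.41, and CEMIP, which takes part in breaking down hyaluronan, was called higher at day 6 after withdrawal alone (1.89), a call lost without the high-mitochondrial libraries (1.54, adjusted p = 0.0744). The HYAL1 call at day 21 was lost without replicate 1 and without replicate 3 (edgeR adjusted p = 0.221 and 0.103). That of CEMIP was also lost without replicate 1, without replicate 2 and when fitted alone (edgeR adjusted p up to 0.244). Of 12 genes for the cytoskeletal linkers and the proteases that shed adhesion molecules, 11 were tested. Only ANK2, an ankyrin of the family that anchors L1CAM and NFASC to the cytoskeleton, was called, by 1.07, 1.34 and 1.10 with IL-1β and by 1.03 at day 30 after withdrawal. Every one of these ANK2 calls was lost without replicate 1. That at day 30 was lost with each replicate left out in turn (edgeR adjusted p up to 0.841) and when fitted alone. The tested members of the ezrin family and the ADAM sheddases were called at no collection.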

How the data were processed

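The authors extracted total RNA, prepared stranded mRNA libraries and sequenced single-end reads, and the deposited values are whole-number counts of reads per Ensembl gene without normalization. The submitters' processing notes name bcl2fastq 2.17, TopHat2 2.0.14, Bowtie2 2.2.5, HTSeq 0.6.1 and the build GRCh37; the annotation release and the strand setting of the counting are not given in the sources used here. Each table lists 63677 genes and 5 summary lines, which were left out of library sizes; reads on no gene made up 8.48% to 18.6% and ambiguous reads 2.62% to 4.18%.

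Groups came from the labels. The members and the lists of related genes were chosen with earlier results of these data known. Genes kept by filterByExpr (19180) were fitted by edgeR 4.0.16 in R 4.3.3 with TMM scaling and the 12 groups as terms, with 24 residual degrees of freedom, and tested by the quasi-likelihood F-test with Benjamini-Hochberg adjustment over all tested genes of each comparison. Calls needed a fold change over 2 beside an adjusted p under 0.05; for a change of response between times, the adjusted p alone was used. The fit was tested on simulated counts drawn independently for each library, without a difference in mitochondrial share or a shared replicate effect. That run tells nothing about the part of these features in the calls. Ratios of summed reads were given with 95% exact intervals from the binomial split of the counts, for counting error only, and a group without reads was set at a floor of 3 counts. Log2 CPM used a prior count of 2.

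Named genes were the 7 members, up to 4 genes of each related list that were called at any time with the largest log2 fold change, and the 3 genes most like each member called at 2 or more times. SELPLG, the 1 tested gene of its list, and CADM1 fall outside this rule and were named after their values were seen, as were the markers given as checks and the genes beside ICAM1. Positions, exon lengths and overlaps were taken from GENCODE v44lift37, and the upstream windows from RefSeq, of which those printed matched GRCh37 exactly at 1 place. Of 114 entries in the lists, 3 had no match. Alternatives were DESeq2 1.42.0 (size factors, Wald test), library totals, other filters, no fold limit, separate fits, a replicate block, the mitochondrial share as a covariate, the fit without the 11 libraries, and each replicate left out.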

Additional observations from a re-analysis of the deposited data

How the results depend on the processing

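The number of the 5 tested members called was 1 (days 6 and 15), 3 (day 21) and 1 (each time after withdrawal). Without a fold limit it was 2 at days 6 and 15 and 2 at day 6 after withdrawal. With DESeq2's size factors, DESeq2's Wald test or the mitochondrial share as a covariate it was 2 at day 15. It was 0 at day 15 with library totals, without a filter on low counts, with at least 10 counts in every sample (also 0 at day 6, ICAM1 then being left out) and when the libraries of high mitochondrial share were left out, which gave 2 at day 6 after withdrawal and 0 at days 15 and 30. Library totals gave 0 at day 30 after withdrawal. Separate fits of each time gave 0 at day 6 and at each time after withdrawal, ICAM1 being left out of the fits at those times by the filter on low counts. Leaving out each replicate in turn gave 0 at day 6, 0 to 1 at day 15, 1 to 2 at day 21 and 0 to 1 at each time after withdrawal.

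Values that turned sign were all of responses not called. Under the mitochondrial covariate, CD58 came to 0.34 at day 6, -0.082 at day 21 and 0.039 at day 15 after withdrawal, and its changes to -0.42 (day 6 to day 21) and 0.44 (day 21 to day 6 after withdrawal); ALCAM came to 0.13 at day 15 after withdrawal, and its changes to -0.13 (day 6 to day 21) and 0.10 (day 21 to day 30 after withdrawal). Without the libraries of high mitochondrial share, CD58 came to 0.28 at day 6 and -0.053 for the change from day 6 to day 21, and ALCAM to -0.039 at day 15, 0.11 at day 30 after withdrawal and 0.20 for its change to that time. With library totals, ALCAM came to 0.16 at day 15 after withdrawal and 0.041 for its change between day 21 and day 30 after withdrawal. The cause was not tested.

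Leaving out each replicate in turn, signs turned within these log2 ranges. ICAM1 ran from -0.18 to 0.69 at day 15 after withdrawal, and its changes from -1.57 to 1.19, -0.23 to 1.11 and -0.28 to 0.73. CD58 ran from -0.47 to 0.31 at day 6, -0.41 to 0.31 at day 6 and -0.90 to 0.14 at day 15 after withdrawal, and -0.039 to 0.78 for its change from day 6 to day 21. ALCAM ran from -0.093 to 0.095 at day 6, -0.30 to 0.18 at day 15 and -0.36 to 0.096 at day 30 after withdrawal, and -0.35 to 0.21 for its change to day 30. L1CAM ran from -0.42 to 0.36 for that change.

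Replicate numbers are shared between groups, and the libraries of a number did not deviate together at every collection: the correlation of same-numbered deviations ran from -0.34 to 0.72 and was over 0.1 in 14 of 18 pairs, among them all 3 pairs at day 21 and all 3 at day 30 after withdrawal. With the replicate block, 1 member was called for the change between day 21 and day 30 after withdrawal, CD44 (-0.74, edgeR adjusted p = 0.0351), where there was 0 without it. The block turned CD58 to -0.066 and ALCAM to -0.002 at day 6 after withdrawal, and it changed no call of a member at any of the 6 times. For the genes of the related lists, 388 of 433 alternative values stayed on their side of the thresholds, 37 lost their call and 8 of SELPLG gained one, and of 153 values with a replicate left out 54 lost it; none turned sign.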
